A study of Homo sapiens with 8 samples.

Results

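The 9 genes described here are BACH1, BACH2, NFE2, NFE2L1, NFE2L2, MAFF, MAFG, MAFK and KEAP1, chosen by name, with the PML::RARA Cut&Run peaks at their loci. Their peaks were the rows that carried a member's symbol, the rows without a symbol whose centre lay within 50 kb of such a row, and all rows inside the BACH2 gene (chr6:90636247-91006562, hg19). This rule gave 24 of the 15412 peaks in the list, 9 with a promoter label and 15 without. MAFK had no row under the rule.

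The study profiled U937-PR9 cells, a monocytic leukaemia line with a PML::RARA transgene behind a promoter that zinc switches on. Induced cells received 100 μM ZnSO4 and control cells sterile water, both for 5 h, and nuclei of each were taken through Cut&Run, in which an antibody brings a nuclease to its target and the released DNA is sequenced. An anti-PML-RARA and an anti-RARA antibody were used on 2 replicates of each condition, which gave 8 libraries in 4 groups. The values below come from a single list, that of the anti-PML-RARA antibody in zinc-treated cells, which combines its 2 replicates; the other 3 groups were not analysed here. The control cells carried the transgene too, and no zinc-treated cells without it are among the groups, so effects of zinc and of PML::RARA cannot be told apart.

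BACH1, BACH2, NFE2, NFE2L1 and NFE2L2 (the gene of NRF2) encode basic leucine zipper proteins of the cap'n'collar family, which bind DNA as dimers with a small MAF protein, encoded by MAFF, MAFG or MAFK. The dimers recognise antioxidant response elements and related MAF recognition elements, where NRF2 activates and the BACH proteins repress genes of heme, iron and redox metabolism. KEAP1 holds NRF2 for the CUL3 ubiquitin ligase until electrophiles or oxidants disable it, and heme inactivates BACH1. NFE2 is known for its role in megakaryocytes and erythroid cells, and BACH2 for its role in B cells and in lymphoid against myeloid fate.

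Sequence around the apex, the midpoint of the stretch with the largest signal, was searched on both strands for short motifs. The promoter-labelled peaks of 6 members held the core of the antioxidant response element, TGACNNNGC, within 150 bp of the apex, and the BACH1 promoter also held TGAGTCA, the core shared by AP-1, NFE2 and BACH dimers. The windows below show these cores in capitals on the plus strand of hg19, so a core on the minus strand appears as its reverse complement.

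BACH1 promoter, at the apex, chr21:30671168-30671228: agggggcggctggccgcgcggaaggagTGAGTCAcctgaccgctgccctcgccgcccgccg
BACH1 promoter, downstream of the start, chr21:30671293-30671353: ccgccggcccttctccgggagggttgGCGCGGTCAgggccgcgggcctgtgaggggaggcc
NFE2 promoter, chr12:54694650-54694679: gagcctgagcTGACACTGCtggacgaggat
NFE2L2 promoter, chr2:178128331-178128360: ggccaaccgaGCGCTGTCAcggaagccaag
MAFF promoter, chr22:38597869-38597898: cttccaggggGCGGGGTCAtacgggggcgg
MAFG promoter, chr17:79882015-79882075: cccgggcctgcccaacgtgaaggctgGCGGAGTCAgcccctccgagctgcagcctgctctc
KEAP1 promoter, first core, chr19:10613460-10613489: caggtcaccaTGACTAAGCagagccgggcg
KEAP1 promoter, second core, chr19:10613483-10613512: ccgggcgcccGCCGTGTCAcaataaaagtc

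The BACH1 apex fell on TGAGTCA itself, at a distance of 0 bp. The NFE2L2 core lay 6 bp from the apex, the KEAP1 cores 12 and 35 bp, the MAFF core 40 bp, the MAFG core 83 bp, the second BACH1 core 125 bp and the NFE2 core 139 bp from it.

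The 4 peaks inside BACH2 were shown because none of them carried a label and all lay in introns. Capitals mark every match to TGAGTCA, to TGCTGA, the MAF-specific end of the MAF recognition element, and to AGGTCA, a hexamer bound by nuclear receptors such as RARA, in a window around each apex.

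BACH2 intron 1, chr6:90995452-90995552: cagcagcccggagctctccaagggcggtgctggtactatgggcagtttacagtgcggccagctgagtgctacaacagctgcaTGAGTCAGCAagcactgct
BACH2 intron 4, nearer the start, chr6:90897597-90897697: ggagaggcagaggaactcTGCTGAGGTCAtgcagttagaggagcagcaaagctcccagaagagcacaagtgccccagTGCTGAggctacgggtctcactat
BACH2 intron 4, farther from the start, chr6:90807967-90808067: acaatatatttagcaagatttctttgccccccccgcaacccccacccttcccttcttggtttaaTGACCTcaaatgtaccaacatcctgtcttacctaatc
BACH2 intron 6, chr6:90662633-90662733: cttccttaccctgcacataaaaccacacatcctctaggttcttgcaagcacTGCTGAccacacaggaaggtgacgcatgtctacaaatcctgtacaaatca

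In intron 1, TGAGTCA ran straight into TCAGCA, the reverse complement of TGCTGA, and they shared the letters TCA. In the intron 4 peak nearer the start, TGCTGA likewise overlapped AGGTCA. In the other intron 4 peak, AGGTCA lay 17 bp from the apex, and its TGCTGA match, 67 bp away, lies outside the printed window.

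RARA and its partner RXR bind paired hexamers, so neighbouring hexamers in the same orientation were searched for as well. Within 150 bp of the apex such a pair was found for 2 member peaks, inside the peak at NFE2 and just outside its edge at MAFG, shown here with the hexamers in capitals.

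NFE2 intron 2, chr12:54688106-54688166: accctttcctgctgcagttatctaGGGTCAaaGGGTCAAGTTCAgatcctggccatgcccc
MAFG 3′ UTR, chr17:79879250-79879279: acacccacAGGTCAaAGGTCAccagaagca

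At NFE2, 2 copies of GGGTCA were separated by a spacer of 2 bp and followed directly by AGTTCA. At MAFG, 2 copies of AGGTCA had a spacer of 1 bp, and the pair ended 2 bp outside the edge of the peak.

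Of the 9 members, 7 had at least 1 promoter-labelled peak, while 30.0% of all 20090 protein-coding genes had one. The members with a label were BACH1, NFE2, NFE2L1, NFE2L2, MAFF, MAFG and KEAP1, and those without were BACH2 and MAFK. Counted by an apex within 1 kb of an annotated start of the gene, the same 7 members had a promoter peak, against 39.3% of protein-coding genes. A peak lay over the gene in 9 of 9 members, against 45.1% of protein-coding genes. NFE2 and MAFG had 2 labelled peaks each, and 8.42% of the 6546 labelled genes had more than 1. These counts were not tested, since the genes were chosen by name with earlier results of the list known.

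Each peak has a width, a total signal summed over it and a largest signal, called height here. Over the whole list the median height was 25 (13 to 87) and the median width 829.5 bp (77 to 7313 bp), and 46.5% of peaks carried a label. The list holds 1 value per peak, which leaves the error of each value unknown, as is the depth per library. Of 5 myeloid marker genes SPI1, CEBPA and MPO carried a label, and of 5 markers of other cell types 0 did; a label is not a measure of expression, and expression was not analysed here.

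The 9 labelled member peaks had a median height of 26, equal to the median of all 7169 labelled peaks. Their median width was 1700 bp against 1108 bp, and their median total signal 21042 against 10082. By width, 6 of the 9 exceeded the median labelled peak and 4 were at least 2000 bp wide (44.4%), against 11.4% of all labelled peaks. The member promoters were thus covered by peaks of ordinary median height, which ranged from 16 at MAFF to 54 at NFE2L1. Most of these peaks were wide, but those of NFE2 and MAFF were narrower than the median labelled peak. The 15 unlabelled member peaks had a median height of 24 and a median width of 583 bp, against 23 and 634 bp in all unlabelled peaks, and 0 of 15 reached 2000 bp, against 2.92%. No list of genes was tested against another, and peaks of the same gene are not independent.

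**Figure D1:**
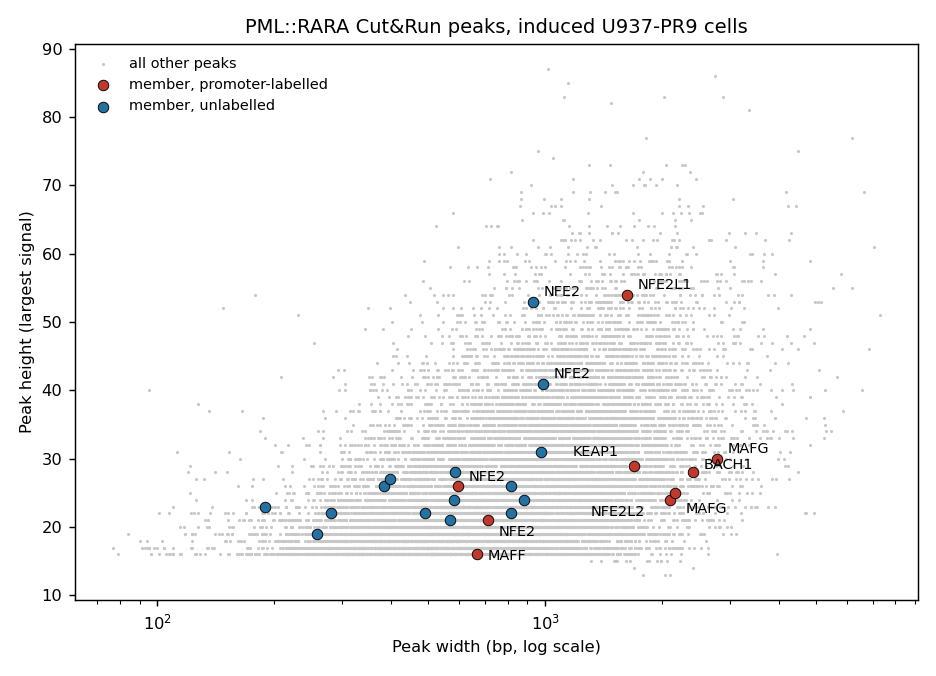
Height (largest signal) against width (bp, log scale) of all 15412 peaks in grey, with the 9 labelled member peaks in red and the 15 unlabelled ones in blue. Of the member peaks, NFE2L1 (54) and an unlabelled NFE2 peak (53) were the highest, whereas MAFG (2778 bp) and BACH1 (2409 bp) were the widest.

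BACH1 (ENSG00000156273, plus strand, chr21:30566392-31003071) encodes the widely expressed heme-sensing repressor. Its labelled peak, chr21:30670523-30672931, had its apex 45 bp upstream of the start of the canonical transcript. It was 2409 bp wide, wider than 96.7% of all peaks (rank 513 of 15412), but its height of 28 exceeded only 60.1% (rank 5666). An unlabelled peak 5295 bp upstream of the start, chr21:30665812-30666195, was nearly as high at 26 but only 384 bp wide. The broad BACH1 promoter peak and the narrow upstream peak therefore differed mainly in width. A further narrow peak over the gene, chr21:30568615-30569018, had a height of 20 and lay beyond the 50 kb of the rule.

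BACH2 (ENSG00000112182, minus strand, 370.316 kb long) encodes the lymphoid paralogue of BACH1. Its 4 peaks were all unlabelled and all intronic, and the nearest one to the canonical start was 11.060 kb downstream of it. That peak, chr6:90995342-90995621 in intron 1, was the weakest of the gene by total signal, at height 22 and width 280 bp, wider than 4.21% of all peaks. Intron 4 held chr6:90897472-90897870, at height 27 and width 399 bp, 108.915 kb from the start. It also held chr6:90807660-90808150, at height 22 and width 491 bp, 198.545 kb from the start. The peak in intron 6, chr6:90662464-90663050, was the highest of the gene at 28 and the widest at 587 bp, and lay 343.879 kb from the start. The BACH2 peaks thus spanned most of the gene and left its start without one.

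Neighbouring apexes in BACH2 were 97.855, 89.63 and 145.334 kb apart, going from the start to the 3′ end. Outside the gene, the nearest peaks were the labelled CASP8AP2 peak 96.199 kb beyond its 3′ end, with a height of 45, and an unlabelled peak 79.017 kb upstream of its start, at height 16 and width 110 bp. Of 1279 protein-coding genes between 200 and 600 kb long, 43.0% had a peak over them and 25.4% a label. BACH2 had 1.08 peaks per 100 kb, more than 91.2% of these genes, whereas the median of those with a peak was 0.479 per 100 kb. At least 4 peaks were found in 104 of these genes, of which 44 (42.3%) had no label and 27 no apex within 1 kb of a start. Peaks over the gene without one at the start were therefore found at other long genes of the list too; whether theirs were intronic was not counted.

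**Figure D2:**
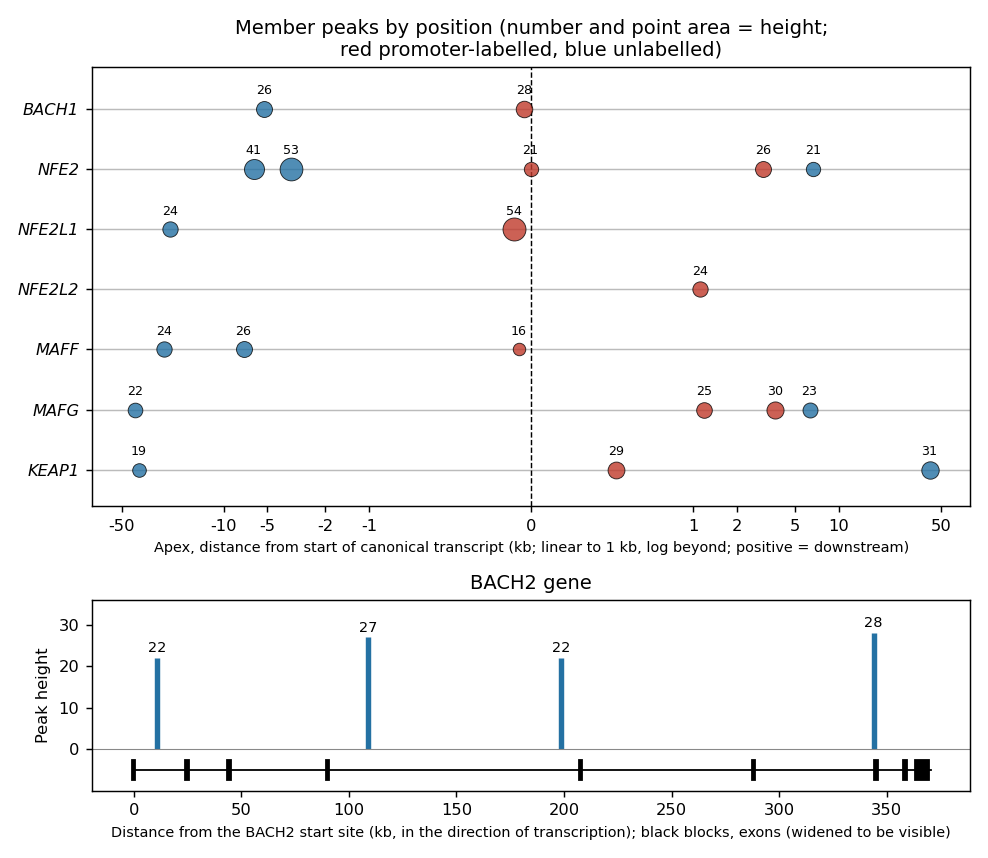
Upper panel, apex of each member peak relative to the start of the canonical transcript (kb, linear to 1 kb and logarithmic beyond, positive downstream), with height as point area and number, red with a label and blue without. Lower panel, height of the 4 BACH2 peaks along the gene (kb from its start) above its exons, with the nearest peak 11.060 kb from the start.

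NFE2 (ENSG00000123405, minus strand, chr12:54685895-54694799) encodes the cap'n'collar subunit of the erythroid and megakaryocytic factor NF-E2. It had 5 peaks within 12.833 kb, the most of any member. The labelled peak at the canonical start, chr12:54694615-54695327, had its apex 4 bp upstream of it, a height of 21 and 713 bp of width. The other labelled peak, chr12:54691457-54692051, lay in intron 1 of the canonical transcript, 127 bp upstream of the start of a shorter transcript, at height 26 and width 595 bp. Both were thus narrower and no higher than the median labelled peak. An unlabelled peak in intron 2, chr12:54688015-54688582, was 21 high and 568 bp wide and held the hexamers shown above.

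The strongest NFE2 peaks carried no label. The peak chr12:54697829-54698759 lay 3446 bp upstream of the canonical start and had a height of 53, above 96.8% of all peaks (rank 425), with a width of 931 bp. The peak chr12:54700570-54701554 lay 6211 bp upstream, at height 41 (above 87.7%) and width 985 bp. These upstream peaks exceeded both labelled NFE2 peaks in height, width and total signal. The start nearest to them was that of a COPZ1 transcript, 3241 and 6006 bp away, only slightly nearer than that of NFE2. This COPZ1 start lay within the labelled peak at the canonical NFE2 start. Among the 6546 labelled genes, 13.0% had at least 3 unlabelled peaks within 50 kb, and 23.0% had an unlabelled peak there that was higher than their highest labelled peak. Of the 7 labelled members the latter held for 3, NFE2, MAFF and KEAP1.

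NFE2L1 (ENSG00000082641, plus strand, chr17:46125691-46138907) encodes NRF1, the membrane-anchored factor that induces proteasome genes. Its labelled peak, chr17:46125027-46126650, was the highest and strongest of all member peaks. Its height of 54 exceeded 97.2% of all peaks (rank 361), its total signal of 31891 exceeded 97.3% (rank 409), and its width of 1624 bp exceeded 87.0%. The apex lay 77 bp upstream of the nearest NFE2L1 start. An unlabelled peak, chr17:46102303-46103185, 24 high and 883 bp wide, lay 23111 bp upstream of NFE2L1 and 3346 bp from a start of COPZ2.

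NFE2L2 (ENSG00000116044, minus strand, chr2:178083395-178257484), which encodes the oxidant-responsive activator NRF2, had a single peak under the rule. This labelled peak, chr2:178128194-178130293, was 2100 bp wide (wider than 94.3% of all peaks, rank 874) with a height of 24, below the list median. Its apex lay 39 bp downstream of a start and in intron 1 of the canonical transcript. NFE2L1 and NFE2L2, the paralogous activators, therefore differed in height, 54 against 24, while both peaks were wider than most. No unlabelled peak lay within 50 kb of it, as for 53.4% of labelled genes.

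MAFG (ENSG00000197063, minus strand, chr17:79876146-79885611) had the widest coverage of the small MAF genes, whose proteins lack an activation domain and serve as partners. Its labelled peaks, chr17:79880577-79883354 and chr17:79883900-79886064, were only 545 bp apart and both had their apex in intron 1. The apexes lay 3649 and 1189 bp downstream of the canonical start, that of the first peak 554 bp upstream of the start of another transcript. Only the first peak had an apex within 1 kb of a MAFG start, and it held the antioxidant response core printed above. The first was 2778 bp wide, the widest member peak (rank 295, wider than 98.1% of all peaks), with a height of 30. The second was 2165 bp wide with a height of 25. Together they covered most of the 5′ part of this short gene.

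The other MAFG peaks were weaker. An unlabelled peak in the 3′ UTR of MAFG, chr17:79879272-79879460, was the narrowest member peak at 189 bp (wider than 1.11% of all peaks), had a height of 23 and lay 120 bp from a start of the neighbouring SIRT7. Another, chr17:79925463-79926279, lay 40308 bp upstream of MAFG at height 22 and width 817 bp. The locus was dense in labelled peaks, with ALYREF, PCYT2, SIRT7 and ASPSCR1 labelled within 50 kb of it.

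MAFF (ENSG00000185022, plus strand, chr22:38596774-38612514), the stress-inducible small MAF gene, had the lowest of all member peaks at its promoter. The labelled peak, chr22:38597664-38598331, had a height of 16, which exceeded 0.130% of all peaks (rank 14278), and a width of 668 bp. In the whole list 1115 peaks had this height and only 20 were lower. The apex fell 16 bp upstream of a MAFF start. The unlabelled peaks on its upstream side were higher. The peak chr22:38590210-38591027, 6064 bp upstream of MAFF, was 26 high and 818 bp wide, and the peak chr22:38572213-38572795, in intron 1 of PLA2G6, was 24 high and 583 bp wide. PLA2G6 itself had a labelled peak with a height of 35.

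MAFK (ENSG00000198517, plus strand, chr7:1570338-1582679), whose product partners NFE2 in erythroid cells, was the member without a row. An unlabelled peak nevertheless lay in its intron 1, chr7:1572449-1573032, 2239 bp downstream of the start. Its height of 18 exceeded 13.7% of all peaks and its width of 584 bp exceeded 29.8%. Counting an apex within 3 kb of a start as a promoter peak, MAFK would be added and 8 of 9 members would have one, against 42.1% of protein-coding genes. The small MAF genes thus ranged from broad coverage at MAFG, through a peak near the lower limit of the list at MAFF, to no label at MAFK.

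KEAP1 (ENSG00000079999, minus strand, chr19:10596801-10614234), the inhibitor of NRF2, had a labelled peak at chr19:10612631-10614330. It had a height of 29 (above 63.2% of all peaks), a width of 1700 bp (above 88.7%) and its apex in intron 1, 63 bp downstream of a start. An unlabelled peak in intron 11 of PDE4A, chr19:10571599-10572574, was slightly higher at 31 with a width of 976 bp. The other unlabelled peak, chr19:10652119-10652376, 38053 bp upstream of KEAP1, was 19 high and 258 bp wide and lay 2284 bp from a start of ATG4D. Neither unlabelled peak lay over KEAP1.

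Across all 24 member peaks the median height was 25.5 and the median percentile by height 51.2, by width 45.1 and by total signal 45.1. These pooled values mix classes that lay apart. By width the median percentile was 88.7 for the labelled and 29.7 for the unlabelled member peaks, and by total signal it was 90.9 and 39.4, whereas by height it was 53.1 and 45.3. These percentiles were taken over all 15412 peaks, where the classes also lay apart. Over the whole list the median width was 1108 bp with a label and 634 bp without, and the median total signal 10082 and 5287. Of the 15 unlabelled member peaks, 6 had their apex inside their own member, 2 in another gene (PLA2G6 and PDE4A) and 7 outside canonical protein-coding transcripts. In base composition the member peaks were like their class. The median GC content within 150 bp of the apex was 65.4% in the labelled member peaks and 64.8% in all labelled peaks, and 53.2% and 53.8% in the unlabelled ones. The extremes were the labelled BACH1 and KEAP1 peaks, each with 77.4%, and the intron 4 peak of BACH2 farther from its start, with 41.5%.

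The antioxidant response core TGACNNNGC was found in 6 of 9 labelled member peaks (66.7%), against 16.8% of all labelled peaks. They belonged to BACH1, NFE2, NFE2L2, MAFF, MAFG and KEAP1, that is, to every labelled member but NFE2L1. Among the unlabelled member peaks it was found in 2 of 15 (13.3%), both at the KEAP1 locus, against 17.2% of all unlabelled peaks. The count depended on the window. Within 100 bp of the apex, or within 150 bp of the peak centre, 4 of 9 labelled member peaks held the core, against 12.4% and 14.9% of labelled peaks, and within 250 bp 6 of 9 did, against 24.2%; these windows were chosen after the first count was seen. The 9 peaks are all the labelled peaks of 7 genes chosen by name, with 2 each at NFE2 and MAFG. They are not independent, and the difference was not tested. The Wilson intervals drawn in the figure of motif shares cover the counting of peaks only and are no test against the share of all peaks. A match shows that the letters are present, not that a factor bound there.

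TGAGTCA was found in 2 of 24 member peaks, those at the BACH1 promoter and in BACH2 intron 1, against 13.0% of all peaks. By class it was in 1 of 9 labelled member peaks, against 4.81% of labelled peaks. Of the unlabelled ones it was in 1 of 15, against 20.0% of unlabelled peaks. TGCTGA was found in 7 of 24 (29.2%), against 19.3%, and all 4 BACH2 peaks were among them. The nuclear receptor hexamer AGGTCA was found within 150 bp of the apex of 8 of 24 member peaks (33.3%), against 18.6% of all peaks, and 7 of these were unlabelled. For the narrow 3′ UTR peak of MAFG the matches lay outside the peak, so 7 peaks held the hexamer themselves; the share over all peaks also counts such windows. Its variant GGGTCA was found in 4 of 24 (16.7%), against 16.7% of all peaks. Of the labelled member peaks, the KEAP1 promoter held AGGTCA and the MAFF promoter GGGTCA, and the other 7 held neither. At KEAP1, AGGTCA stands just ahead of the first printed core, and at MAFF, GGGTCA lies inside the printed core.

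Pairs of hexamers (AGGTCA or GGGTCA, and as variants AGTTCA or GGTTCA) in the same orientation with a spacer of 0 to 10 bp were found within 150 bp of the apex of the 2 member peaks printed above (8.33%), against 1.58% of all peaks, and only the NFE2 pair lay inside its peak. The search for pairs was chosen after the single hexamers had been seen. GGAAGT, the core bound by ETS factors such as PU.1, was found in 6 of 24 member peaks (25%), against 37.3% of all peaks, and in 1 of 9 labelled ones, MAFG, against 31.8% of labelled peaks. AGATAA, bound by GATA factors, was found in 2 of 24, both at NFE2, against 6.65%.

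**Figure D3:**
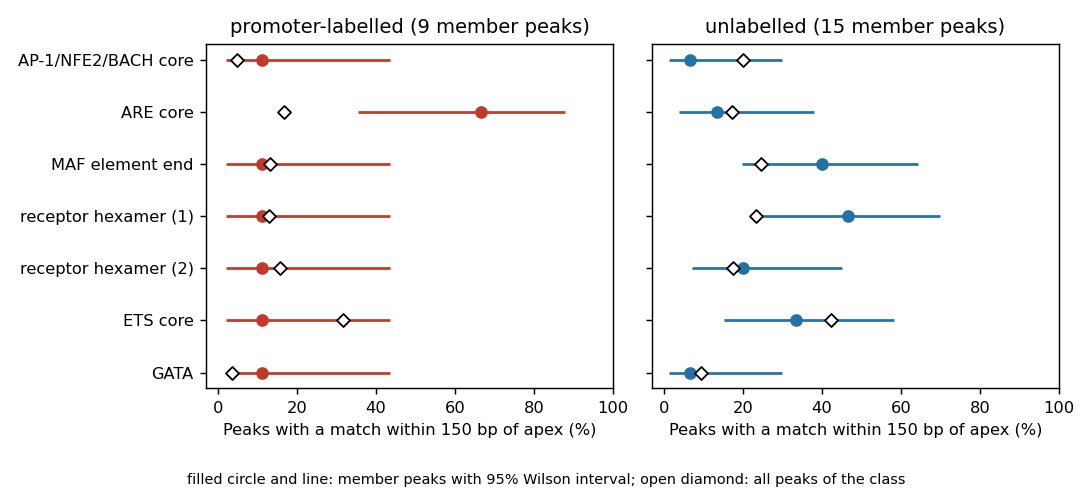
Share of peaks (%) with a match within 150 bp of the apex, for labelled peaks (left, 9 member peaks) and unlabelled peaks (right, 15), as filled circles with 95% Wilson intervals for the members and open diamonds for all peaks of the class. The antioxidant response core in labelled peaks, at 66.7% against 16.8%, was the widest gap. It was not tested, since the genes were chosen by name and peaks of the same gene are not independent.

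The promoters in the RefSeq table, which uses another assembly, were available for 7 of 9 members with 13 promoters, all but NFE2 and MAFK. TGACNNNGC occurred in 2 of the 13 member promoters, those of KEAP1 and MAFF, against 13.3% of all 35116 promoters. Its share there was near the background, unlike its share around the labelled apexes. The sets are not alike, however. The promoters include those of BACH2, which had no labelled peak, and leave out NFE2, which had, and several promoters of a gene count separately. TGAGTCA occurred in 1 of 13, that of BACH1, against 4.95%. The other motifs occurred in 1 to 3 of the 13, against 10.3 to 22.8% of all promoters.

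The partners and targets of these factors were described from 6 lists with 67 genes in all, of which 45 (67.2%) had a labelled peak, against 30.0% of all protein-coding genes. The same share is the background of the count in each list. The lists were drawn up by symbol, and whether each gene is a partner or target of these factors was not tested. All 9 of 9 genes of the KEAP1 ligase and NRF2 turnover list had one. The highest of them was at GSK3B, a kinase that marks NRF2 for degradation (height 50), and the lowest at PALB2, a KEAP1-binding repair protein (19). CUL3 and RBX1, the scaffold and RING subunit of the KEAP1 ligase, had heights of 25 and 46. SQSTM1, the autophagy receptor that sequesters KEAP1, had a peak 3665 bp wide with a height of 35.

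Of 11 AP-1 and related partners, 9 had a labelled peak, with a median width of 2615 bp. FOSL2 had the highest (47) and BATF the lowest (21), and BATF2 and BATF3 had none. Differences between the lists were not tested.

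Of 20 antioxidant and glutathione targets, 11 had a label, with heights from 21 at GCLM, a subunit of the enzyme that makes γ-glutamylcysteine, to 53 at GPX4, the lipid peroxide reductase. No label was given to SLC7A11, SRXN1, PRDX1, PRDX6, SOD1, ABCC1, ABCC2, ABCC4 and MGST1. PRDX1, PRDX6 and SOD1 had an apex 81, 584 and 17 bp from a start all the same, under no label of their own. Of 6 NADPH supply genes, 5 had a label, with heights from 19 at TALDO1 to 51 at PGD, and ME1 had none.

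Heme and iron targets had a label in 4 of 12 cases (33.3%), near the share of all protein-coding genes. BLVRB, a biliverdin reductase, had the highest (39) and ALAS1, the first enzyme of heme synthesis, the lowest (23). HMOX1, the heme oxygenase gene that BACH1 is best known to repress, had no label, and its nearest apex was 3254 bp from a start. FTL, SLC48A1, BLVRA, FECH, SLC40A1, HRG and FLVCR1 had none either, although an apex lay 5 bp from a start of FTL and 169 bp from one of SLC48A1. Of the 9 genes listed by symbol under the BACH2 and CEBP axis, 7 had a label, from 17 at CEBPA and BCL6 to 35 at CEBPE. CEBPD and CEBPZ had none. Counted by an apex within 1 kb of a start, 47 of the 67 genes had a promoter peak, against 39.3% of protein-coding genes, and the heme and iron targets had 6 of 12.

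**Figure D4:**
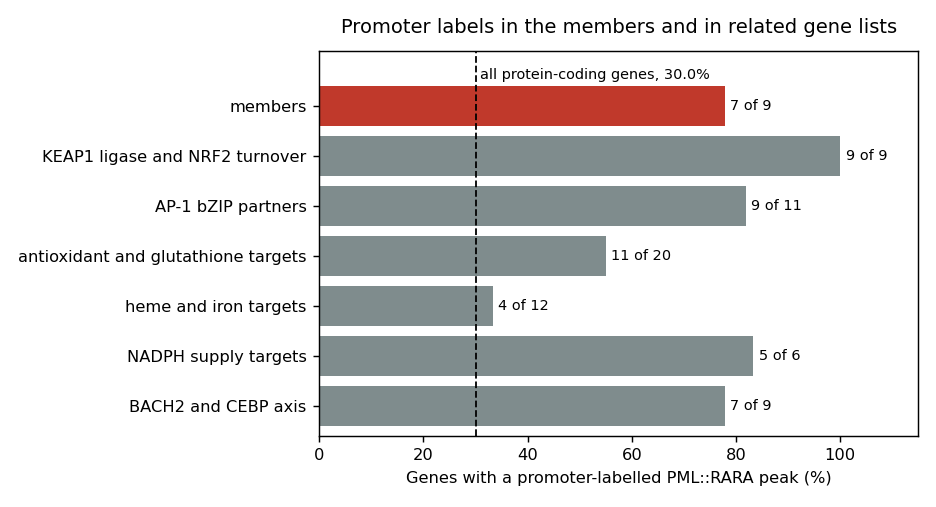
Share of genes (%) with a promoter-labelled peak among the 9 members (red) and in the 6 lists of partners and targets (grey), with counts beside the bars and the share of all protein-coding genes, 30.0%, as a dashed line. The heme and iron targets (4 of 12) lay nearest to the line and the KEAP1 ligase and NRF2 turnover list (9 of 9) farthest from it.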

How the data were processed

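Cut&Run of U937-PR9 cells was described in 8 libraries, of which the combined list of the 2 zinc anti-PML-RARA replicates was analysed. Per the study's methods and the submitters' processing notes, reads were trimmed with Trimmomatic, aligned to hg19 with Bowtie2 and freed of duplicates with SAMtools and of blacklisted reads with Bedtools. Peaks were called by SEACR against the paired control with the norm union setting and kept if reproducible by IDR; tool versions are not given in the sources used here. The authors deposited for each peak its width, a signal summed over the peak and a score, which is the largest signal; the columns are headed otherwise, and their content was taken from the values, since the total was below height times width in all 15412 peaks. Any scaling of the deposited signal is not given in the sources used here. The authors assigned symbols from the UCSC known genes where the apex overlapped a promoter.

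Positions came from GENCODE release 44 mapped to GRCh37, in which 6381 of the 6546 symbols occur, and from the genome of that build. In 34 peaks that lack the end of the stretch of largest signal, its start was taken as the apex. Tied peaks share the best rank. The functions were tested on simulated data. No test between groups was possible with 1 value per peak. Members and lists were chosen with earlier results of these data known. All members were named, and of each list the genes with the highest and lowest labelled peak and those without; CUL3, RBX1 and SQSTM1 were added after their values were seen. A list of related factors is not reported here. Alternatives varied the radius, the promoter definition, the ranking, the peaks kept and the motif window. Python 3.11.15, samtools 1.23.1, pysam 0.24.0, pandas 2.3.3, scipy 1.17.1, matplotlib 3.10.9 and numpy 2.4.6 were used.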

Additional observations from a re-analysis of the deposited data

How the results depend on the processing

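Counts were held to have moved when they changed by more than 1.5 times, and shares and percentiles when they left the 95% Wilson interval of the reported value, which is narrow for a share of all genes and wide for a share of 24 peaks. By this measure 6 of 29 alternatives moved and 23 did not. With a radius of 25 or 100 kb in place of 50 kb the rule gave 20 or 34 peaks. The 24 peaks of the rule fell to 12 when only peaks of at least median height counted, and to 8 for those of at least median width or median total signal, since these settings shorten the list by construction. Of the 4 peaks in BACH2, 2 reached the median height. The share of protein-coding genes with a promoter peak, 30.0% by label, was 39.3% with an apex within 1 kb of a start and 42.1% within 3 kb, where more peaks count by construction. The number of members with a promoter peak ranged from 5 to 8 and the median percentile of the member peaks from 45.1 to 60.4. The windows for TGACNNNGC were chosen after seeing the data. No paired analysis was possible because each peak has 1 value for both replicates together, which also means that neither replicate could be left out. Depth per library is unknown, so peaks below the list's threshold may have been missed. A gene without a label may still have a called peak, even at its start, as FTL, SOD1 and PRDX1 had.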
